A study of Rattus norvegicus with 12 samples.

Results

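The genes described here are the cyclic nucleotide phosphodiesterases and the adenylyl and guanylyl cyclases of the rat dorsal horn. They were taken by symbol from the count tables of 2 spinal layers, as every protein-coding gene called Pde with a number and a letter from a to h, Adcy with a number, or Gucy. The rule found 43 genes of 32623, of which 24 were phosphodiesterase genes, 10 adenylyl cyclase genes and 9 guanylyl cyclase genes. Natriuretic peptide receptors are not among them, though Npr2 is a guanylyl cyclase under another name. Npr2 is given with the pathway genes below. The libraries came from laminae I–II (superficial layer) and laminae III–VI (deep layer) of the dorsal horn, laser-microdissected from the lumbar cord of rats aged 8 weeks. Rats had been injected s.c. with CNO (1 mg kg−1) or with Saline 120 min earlier, and each layer and treatment gave 3 libraries, 12 in all. All groups, the Saline groups included, were OT-hM3Dq-mCherry transgenic rats, in which the oxytocin promoter drives hM3Dq, an engineered Gq-coupled receptor that responds to CNO. The receptor is therefore made in oxytocin neurons, and no rats without the transgene were analysed here. The questions addressed were whether the layers differed in these genes and whether CNO changed them in either layer.

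Adenylyl cyclases make cAMP from ATP, and guanylyl cyclases make cGMP from GTP. Phosphodiesterases hydrolyse both messengers, and each family prefers cAMP, cGMP or either. In the dorsal horn, cAMP and cGMP pass on signals from G-protein-coupled receptors and from nitric oxide, and both pathways have long been studied in spinal sensitization to pain.

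Total counts lay between 5245952 and 7889953 per library, and each CNO library of the superficial layer (6095833 to 6576869) was larger than each Saline library of that layer (5245952 to 5694619). Replicates of a group differed by more than the sampling noise (chi-square statistic of 2.50 to 4.35 for each degree of freedom). The layer labels held in every library, by marker lists chosen with earlier results of these data known. The superficial markers summed to 1399.5 to 1811 CPM (counts scaled to the library total times its TMM factor) in the superficial layer and 491 to 549 CPM in the deep layer, and the deep markers to 3057 to 4179 CPM in the superficial layer and 12305 to 19804 CPM in the deep layer. Layers also differed in glial markers. All 8 oligodendrocyte markers were lower and all 6 microglial markers were higher in the superficial layer, and 5 of 7 astrocyte markers were higher there. The shares of all genes tested were 31.3% higher and 31.2% lower in the superficial layer. Of 7 general neuronal markers, 1 was higher and 4 were lower in the superficial layer, and their sum was 2009 to 2187 CPM in the superficial layer and 2837 to 3222 CPM in the deep layer. Of 5 glutamatergic markers 3 were higher and 1 lower in the superficial layer. Their sum was 661 to 709 CPM there and 432 to 475 CPM in the deep layer. Of 6 GABAergic and glycinergic markers 2 were higher and 2 lower. The 6 summed to 1466 to 1596 CPM in the superficial layer and 1911 to 2051 CPM in the deep layer. In the superficial layer 3 of 3 Schwann cell markers were higher and 4 of 5 endothelial and mural markers lower. The Schwann cell sum there was 114 to 239 CPM in Saline libraries but 29.8 to 62.2 CPM in CNO libraries. In the deep layer it was 27.2 to 37.6 CPM, which overlaps the superficial CNO libraries. Of 7 fibroblast and meningeal markers 4 were higher and 1 lower in the superficial layer. The part of these makeup differences in the results below was not tested, and in bulk tissue fewer cells of a type and less RNA per cell cannot be told apart. The 43 genes took 0.177% to 0.196% of the counts in the superficial layer and 0.149% to 0.163% in the deep layer.

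Of the 43 genes, 33 had enough counts to be tested between the layers and 10 did not, with at most 6 counts in any library. The untested genes were Gucy2c, Gucy2d, Gucy2f, Gucy2g, Pde4c, Pde6a, Pde6b, Pde6c, Pde6g and Pde6h. Most of them are known from other organs, such as the phototransduction enzymes of rods and cones (Pde6a, Pde6b, Pde6c and their inhibitory subunits Pde6g and Pde6h) and the intestinal receptor Gucy2c. Pde6g and Pde6h had 1 count each over the 12 libraries, and Pde4c, the best covered, had 13 counts in the superficial layer and 24 in the deep layer. At this depth no level can be given for these genes. The layers were compared over all 12 libraries by edgeR's quasi-likelihood test with a term for each rat, p-values adjusted over all 13745 genes tested, and log2 differences are the superficial layer minus the deep layer.

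Between the layers 11 of 33 genes were higher in the superficial layer (33.3%), 10 were lower (30.3%) and 12 did not pass the test at an adjusted p under 0.05 by edgeR. Of all genes tested, 31.3% were higher and 31.2% were lower in the superficial layer, so the shares for the cyclases and phosphodiesterases are close to the background. Their median log2 difference was 0.06, against 0.02 for all genes. A log2 difference of 1 or more beside the adjusted p was reached by 3 of the 33 (9.09%, against 8.88% of all genes), namely Pde11a, Gucy2e and Pde3a, all higher in the superficial layer. Most calls were small, with 17 of 21 under 0.7 on the log2 scale. A rat here is a pair of libraries, 1 of each layer, with the same treatment and number, which is inferred from the titles. Libraries of the layers did not overlap for 18 of the 21 called genes, and 20 went the same way in all 6 rats. Gucy2e is in these counts and in those of higher genes above. It passed the low-count filter only through the superficial layer, so its part in them carries no test. Adcy10, among the 12 that did not pass, reached that filter only through the deep layer. Both treatments taken alone made the same call for 17 of the 21. No share over all called genes is given beside the 18, the 20 and the 17. Genes called by the layer test tend to separate in this way, so these counts are not read as a trait of the family. With library totals in place of TMM factors the split was 16 higher and 8 lower, and the median log2 difference of all genes moved by 0.18 in that setting. The log2 difference of each tested gene is plotted with its standard error.

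**Figure D1:**
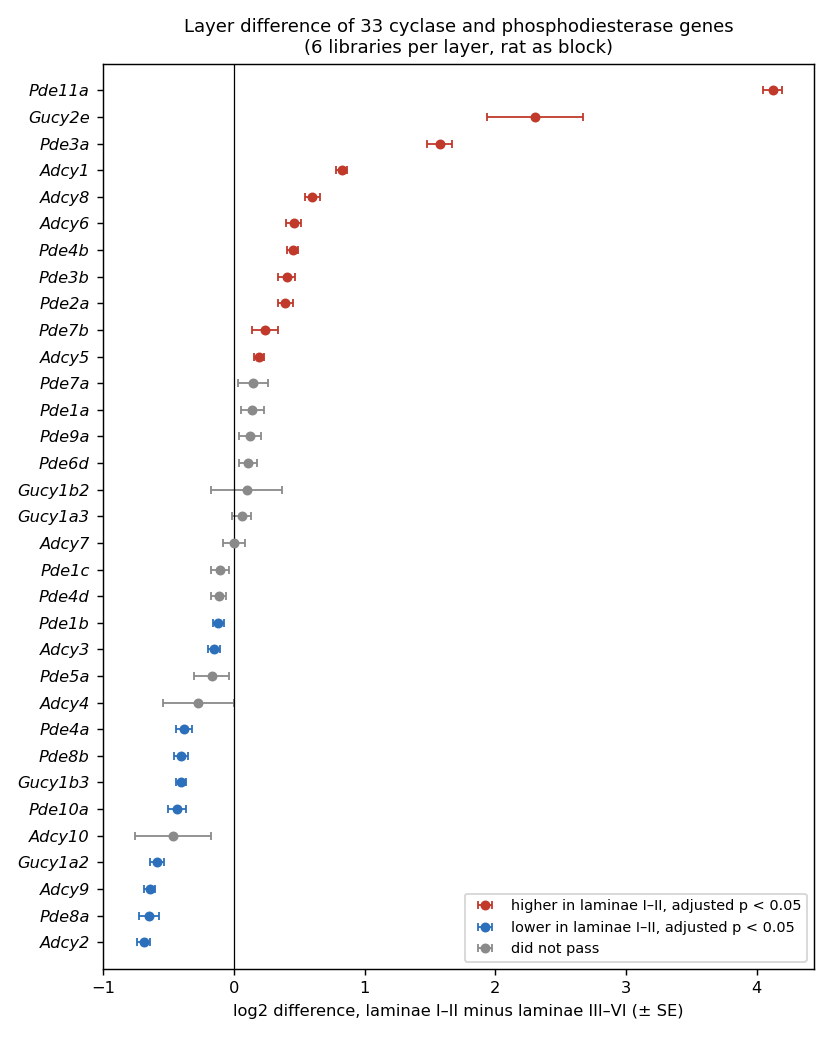
Log2 difference, laminae I–II minus laminae III–VI, for the 33 tested genes, with the standard error from the edgeR fit as bars (6 libraries per layer). Red points are the 11 genes higher in the superficial layer, blue points the 10 lower ones (of which Adcy3 and Pde1b turned in sign with library totals only) and grey points the 12 that did not pass, and Pde11a stands at 4.12, above Gucy2e (2.30) and Pde3a (1.57).

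Pde11a, a phosphodiesterase of both cAMP and cGMP, had the largest layer difference of these genes. Its level was 95.3, 111 and 107 CPM in the CNO libraries of the superficial layer and 93.9, 93.6 and 83.3 CPM in the Saline libraries of that layer. In the deep layer it was at 5.66, 5.51 and 4.82 CPM in the CNO libraries and at 6.78, 5.66 and 4.89 CPM in the Saline libraries. Every superficial library stood far above every deep one, and the 505 to 744 reads per superficial library stood against 33 to 51 per deep library. The difference was 17.4-fold (log2 difference 4.12 ± 0.07 SE, edgeR adjusted p = 3.07e-24), rank 12 of all 13745 genes by log2 difference toward the superficial layer and rank 9 by p. It was 4.29 in CNO rats and 3.96 in Saline rats. The gene lies on chromosome 3 at 62818502 to 63211845 (minus strand, rn6).

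Pde3a, a phosphodiesterase of both messengers whose hydrolysis of cAMP is inhibited by cGMP, was also a superficial gene. It had 25.9, 29.0 and 27.1 CPM in the CNO libraries and 22.6, 20.5 and 18.6 CPM in the Saline libraries of the superficial layer. In the deep layer it had 5.50, 9.69 and 7.01 CPM in the CNO libraries and 8.77, 8.23 and 8.81 CPM in the Saline libraries. No deep library reached the lowest superficial one, and the difference was 2.98-fold (log2 difference 1.57 ± 0.10 SE, edgeR adjusted p = 3.00e-13). It was 1.90 in CNO rats and 1.26 in Saline rats, and the test of that gap is given with the CNO results. Its close relative Pde3b was higher in the superficial layer too, by less (lowest, median and highest library 49.2, 50.8 and 56.3 CPM in the superficial layer and 33.6, 39.6 and 44.0 CPM in the deep layer, log2 difference 0.40 ± 0.06 SE, edgeR adjusted p = 4.08e-06). Within libraries the ratio of Pde3a to Pde3b counts was 0.367 to 0.576 in the superficial layer and 0.150 to 0.253 in the deep layer, so the mix of Pde3 genes differed between the layers as well. Such ratios do not depend on the scaling, and the pairs of genes for them were chosen after their values were seen, so they carry no test.

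The letters in front of the starts of these genes are given because counts per gene cannot say which start was used, and because a change in cAMP acts on many promoters through the cAMP response element (CRE), the binding site of CREB. RefSeq windows (GRCr8) were matched by symbol or synonym for 29 of the 43 genes, with 41 starts, and the 250 bases before each start were searched on both strands for the full site TGACGTCA and for its shorter core TGACG. The full site holds the core. The full site was in 1.59% of all 33469 such windows and in 0 of the 41. The core was in 18.2% of all windows and in 7 of the 41 (17.1%). Those 7 belonged to Adcy9, Pde10a, Pde4a, Pde4d and Pde8a. Of the genes higher in the superficial layer, 7 had a window (11 starts) and 0 of them held the core. Of the genes lower there, 8 had a window (12 starts) and 4 held it. Of the tested genes that did not pass, 9 had a window (13 starts) and 1 held it. These counts are by gene with any start, so the 18.2% of windows is not their background, and no share by gene over all genes is given. These are matches of letters, described and not tested. Shown 5′ to 3′ are the 3 starts of Pde11a, which have no core, the start of Pde3a, which has none either, and the starts of Adcy9 and Pde8a and the first of 2 starts of Pde10a, in which the capitals mark the core on either strand. RefSeq places the Pde11a starts at chr3:81704398-81704647, chr3:81680613-81680862 and chr3:81587091-81587340 (minus strand), the Pde3a start at chr4:175904026-175904275 (plus strand), and those of Adcy9, Pde8a and Pde10a at chr10:11645595-11645844 (plus), chr1:144575219-144575468 (plus) and chr1:54765669-54765918 (minus). The second Pde10a start (chr1:54501207-54501456, minus) has no core and is not shown.
Pde11a first start: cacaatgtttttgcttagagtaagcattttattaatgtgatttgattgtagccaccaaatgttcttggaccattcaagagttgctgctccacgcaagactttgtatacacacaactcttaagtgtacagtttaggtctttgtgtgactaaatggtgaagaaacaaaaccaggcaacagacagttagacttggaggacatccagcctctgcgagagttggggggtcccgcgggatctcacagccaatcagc
Pde11a second start: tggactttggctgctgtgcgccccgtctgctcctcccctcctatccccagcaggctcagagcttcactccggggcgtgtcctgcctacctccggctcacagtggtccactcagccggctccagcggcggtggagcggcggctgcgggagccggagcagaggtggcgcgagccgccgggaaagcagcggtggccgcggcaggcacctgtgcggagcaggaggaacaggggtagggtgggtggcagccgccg
Pde11a last start: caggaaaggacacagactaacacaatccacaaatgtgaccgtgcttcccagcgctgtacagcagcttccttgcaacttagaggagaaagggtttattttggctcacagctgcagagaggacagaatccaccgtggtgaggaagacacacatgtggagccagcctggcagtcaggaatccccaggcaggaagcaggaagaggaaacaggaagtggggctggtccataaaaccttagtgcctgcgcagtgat
Pde3a: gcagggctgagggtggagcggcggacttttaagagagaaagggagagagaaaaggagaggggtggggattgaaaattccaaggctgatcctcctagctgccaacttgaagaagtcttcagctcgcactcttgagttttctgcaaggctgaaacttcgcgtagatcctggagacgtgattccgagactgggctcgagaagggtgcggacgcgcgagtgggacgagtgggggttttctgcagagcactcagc
Adcy9: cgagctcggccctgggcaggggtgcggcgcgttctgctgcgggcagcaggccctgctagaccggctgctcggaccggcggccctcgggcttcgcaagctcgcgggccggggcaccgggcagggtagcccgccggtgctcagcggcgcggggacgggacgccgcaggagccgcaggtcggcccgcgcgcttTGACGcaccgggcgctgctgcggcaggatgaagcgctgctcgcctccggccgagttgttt
Pde8a: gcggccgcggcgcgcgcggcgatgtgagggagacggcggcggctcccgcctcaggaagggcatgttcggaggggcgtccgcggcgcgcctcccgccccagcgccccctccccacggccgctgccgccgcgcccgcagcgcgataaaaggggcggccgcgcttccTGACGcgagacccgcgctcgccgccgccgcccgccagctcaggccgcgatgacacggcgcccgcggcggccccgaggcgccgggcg
Pde10a first start: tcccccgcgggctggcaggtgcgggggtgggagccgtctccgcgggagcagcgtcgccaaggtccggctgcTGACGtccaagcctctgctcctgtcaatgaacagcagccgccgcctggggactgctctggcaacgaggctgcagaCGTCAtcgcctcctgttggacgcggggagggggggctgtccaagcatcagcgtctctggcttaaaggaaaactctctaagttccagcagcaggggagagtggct

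Gucy2e was the only tested membrane guanylyl cyclase of the Gucy name, and it was scarce. It had 13, 9 and 23 counts in the CNO libraries and 15, 10 and 8 counts in the Saline libraries of the superficial layer. In the deep layer it had 3, 2 and 4 counts in the CNO libraries and 2, 2 and 3 counts in the Saline libraries. Each superficial library was above each deep one, 78 reads in all against 16, and the fitted difference was 4.94-fold (log2 difference 2.30 ± 0.37 SE, edgeR adjusted p = 5.72e-06). The gene passed the low-count filter only through the superficial layer, so a gene of this depth had to differ to be tested, and its p is given as a description.

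The other phosphodiesterases of both messengers were split between the layers. Pde2a, which cGMP stimulates to break down cAMP, was higher in the superficial layer (44.0, 52.3 and 58.0 CPM as lowest, median and highest library) than in the deep layer (31.3, 40.6 and 41.5 CPM), with a log2 difference of 0.40 (SE 0.06, edgeR adjusted p = 2.20e-06). Pde10a, best known from striatal neurons, was lower in the superficial layer (21.2, 26.6 and 30.0 CPM) than in the deep layer (32.6, 36.1 and 36.7 CPM), with a log2 difference of -0.43 (SE 0.07, edgeR adjusted p = 5.86e-06). Neither gene overlapped between the layers. The calcium-calmodulin-stimulated Pde1 genes differed little. Pde1b was slightly lower in the superficial layer (log2 difference -0.12 ± 0.04 SE, edgeR adjusted p = 0.0150), but it lost its call in 6 of 14 alternatives and turned in sign with library totals only. Pde1a (0.14 ± 0.09 SE) and Pde1c (-0.10 ± 0.07 SE) did not pass.

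Among cAMP-specific phosphodiesterases, members of one family went opposite ways. Pde4b, a target of rolipram, had 94.7, 101 and 105 CPM in the superficial layer and 60.7, 75.6 and 80.5 CPM in the deep layer, higher in the superficial layer (log2 difference 0.45 ± 0.04 SE, edgeR adjusted p = 1.23e-09). Pde4a, a target of the same drug, had 31.3, 37.1 and 41.1 CPM in the superficial layer and 42.9, 47.9 and 52.6 CPM in the deep layer, lower in the superficial layer (log2 difference -0.38 ± 0.06 SE, edgeR adjusted p = 9.23e-06). In both, all 6 libraries of a layer lay on the same side of all 6 of the other. The ratio of Pde4b to Pde4a counts was accordingly 2.30 to 3.08 in the superficial layer and 1.37 to 1.88 in the deep layer. Pde4d, the third tested Pde4 gene, was at 37.8, 45.0 and 47.9 CPM in the superficial layer and 45.9, 46.9 and 53.0 CPM in the deep layer and did not pass (log2 difference -0.12 ± 0.06 SE, edgeR adjusted p = 0.0794).

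Both Pde8 genes, cAMP phosphodiesterases of high affinity, were lower in the superficial layer. Pde8a was at 15.5, 19.4 and 22.9 CPM in the superficial layer and 28.5, 29.8 and 31.8 CPM in the deep layer (log2 difference -0.65 ± 0.08 SE, edgeR adjusted p = 5.02e-08). Pde8b was at 34.2, 40.9 and 42.5 CPM in the superficial layer and 43.9, 53.1 and 59.3 CPM in the deep layer (log2 difference -0.40 ± 0.06 SE, edgeR adjusted p = 9.36e-07). The superficial and deep libraries did not overlap for either. Of the Pde7 genes, Pde7b was higher in the superficial layer by 0.24 (SE 0.10, edgeR adjusted p = 0.0399), in 5 of 6 rats and with overlap, and lost its call in 8 of 14 alternatives. Pde7a did not pass (0.15 ± 0.12 SE).

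The cGMP-specific phosphodiesterases showed no layer difference past the test. Pde5a, the target of sildenafil, was at 4.87, 7.36 and 9.02 CPM in the superficial layer and 7.15, 7.796 and 9.09 CPM in the deep layer (log2 difference -0.17 ± 0.13 SE, edgeR adjusted p = 0.277). Pde9a, which has a high affinity for cGMP, was at 14.05, 21.2 and 26.2 CPM in the superficial layer and 14.9, 17.2 and 26.4 CPM in the deep layer (0.13 ± 0.08 SE, edgeR adjusted p = 0.199). Pde6d, a carrier of prenylated proteins named for its place beside the retinal enzyme, did not pass either (0.11 ± 0.07 SE, edgeR adjusted p = 0.195).

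The 3 adenylyl cyclases stimulated by calcium-calmodulin all passed, in both directions. Adcy1, a cyclase of neurons that couples calcium entry to cAMP, had 222, 242 and 293 CPM in the superficial layer and 135, 139 and 149.8 CPM in the deep layer, a 1.77-fold higher level in the superficial layer (log2 difference 0.82 ± 0.04 SE, edgeR adjusted p = 4.42e-15). Adcy8 had 69.7, 80.9 and 81.5 CPM in the superficial layer and 43.9, 53.4 and 60.3 CPM in the deep layer, 1.52-fold higher in the superficial layer (0.60 ± 0.06 SE, edgeR adjusted p = 1.27e-09). Both were higher in all 6 rats, and no deep library reached a superficial one. Adcy3, a cyclase of olfactory cilia and of neuronal primary cilia, was slightly lower in the superficial layer, at 71.2, 85.5 and 89.0 CPM there and 90.9, 92.8 and 95.6 CPM in the deep layer (-0.15 ± 0.05 SE, edgeR adjusted p = 0.00493). That call was lost in 4 of 14 alternatives, and the sign turned with library totals only.

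The 2 cyclases that calcium inhibits were both higher in the superficial layer. Adcy6 was at 48.8, 52.3 and 60.3 CPM in the superficial layer and 35.6, 38.3 and 45.9 CPM in the deep layer (log2 difference 0.46 ± 0.06 SE, edgeR adjusted p = 1.41e-07). Adcy5 was at 121, 135 and 147 CPM in the superficial layer and 106, 117 and 132 CPM in the deep layer (0.19 ± 0.04 SE, edgeR adjusted p = 0.000126). The Adcy5 libraries overlapped between the layers, yet the gene was higher in the superficial layer in 6 of 6 rats.

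Beside Adcy3, 2 further adenylyl cyclases were lower in the superficial layer. Adcy2, stimulated by G protein beta-gamma subunits, was at 65.6, 74.4 and 83.2 CPM in the superficial layer and 104, 122 and 134 CPM in the deep layer, the largest drop of the 33 genes (log2 difference -0.69 ± 0.05 SE, edgeR adjusted p = 3.42e-12). Adcy9, a widely expressed cyclase that forskolin activates poorly, was at 83.0, 96.6 and 109.7 CPM in the superficial layer and 141, 151 and 163 CPM in the deep layer (-0.64 ± 0.04 SE, edgeR adjusted p = 1.32e-12). Both were lower in all 6 rats without overlap. The other beta-gamma-stimulated cyclases, Adcy4 (-0.27 ± 0.27 SE) and Adcy7 (0.00 ± 0.08 SE), did not pass, nor did Adcy10, the soluble cyclase that responds to bicarbonate (-0.46 ± 0.29 SE, on 49 counts in the superficial layer and 74 in the deep layer). Adcy10 reached the low-count filter in 2 superficial and 3 deep libraries, so it was tested only through the deep layer. Its values are given as a description. The ratio of Adcy1 to Adcy9 counts was 2.15 to 2.85 in the superficial layer and 0.853 to 0.956 in the deep layer. That of Adcy8 to Adcy2 was 0.980 to 1.21 in the superficial layer and 0.403 to 0.472 in the deep layer.

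The subunits of soluble guanylyl cyclase, the receptor of nitric oxide, did not move together. The enzyme pairs an alpha with a beta subunit. Gucy1b3, the common beta subunit, was at 128, 153 and 161 CPM in the superficial layer and 184, 200.4 and 209 CPM in the deep layer, lower in the superficial layer in 6 of 6 rats (log2 difference -0.40 ± 0.04 SE, edgeR adjusted p = 2.43e-10). Gucy1a2, an alpha subunit, was at 47.6, 58.4 and 63.6 CPM in the superficial layer and 79.3, 82.8 and 94.5 CPM in the deep layer, also lower in 6 of 6 rats (-0.58 ± 0.05 SE, edgeR adjusted p = 5.58e-10). Gucy1a3, the other alpha subunit, lies 19678 bases from Gucy1b3 on the same strand of chromosome 2 (rn6), and its levels overlapped, at 20.5, 23.9 and 30.3 CPM in the superficial layer and 17.8, 22.9 and 28.8 CPM in the deep layer (0.06 ± 0.07 SE, edgeR adjusted p = 0.497). The ratio of Gucy1a3 to Gucy1a2 counts was 0.335 to 0.507 in the superficial layer and 0.216 to 0.329 in the deep layer, ranges that do not overlap. Gucy1b2, with 70 counts in the superficial layer and 68 in the deep layer, did not pass (0.10 ± 0.27 SE).

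**Figure D2:**
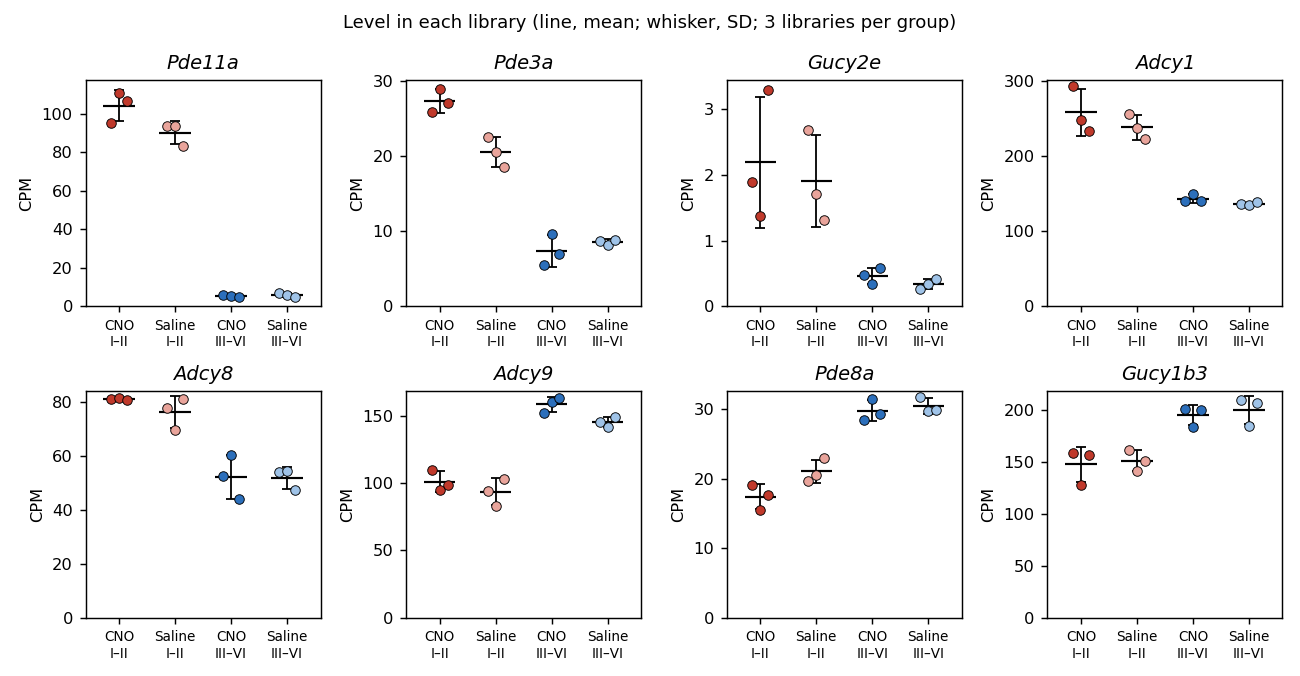
CPM of 8 genes in each of the 12 libraries, with the mean (line) and SD (whisker) of the 3 libraries of a group. Each axis starts at 0 and has its own scale. Pde11a, Pde3a, Gucy2e, Adcy1 and Adcy8 stand higher in both groups of the superficial layer, and Adcy9, Pde8a and Gucy1b3 stand lower there.

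**Figure D3:**
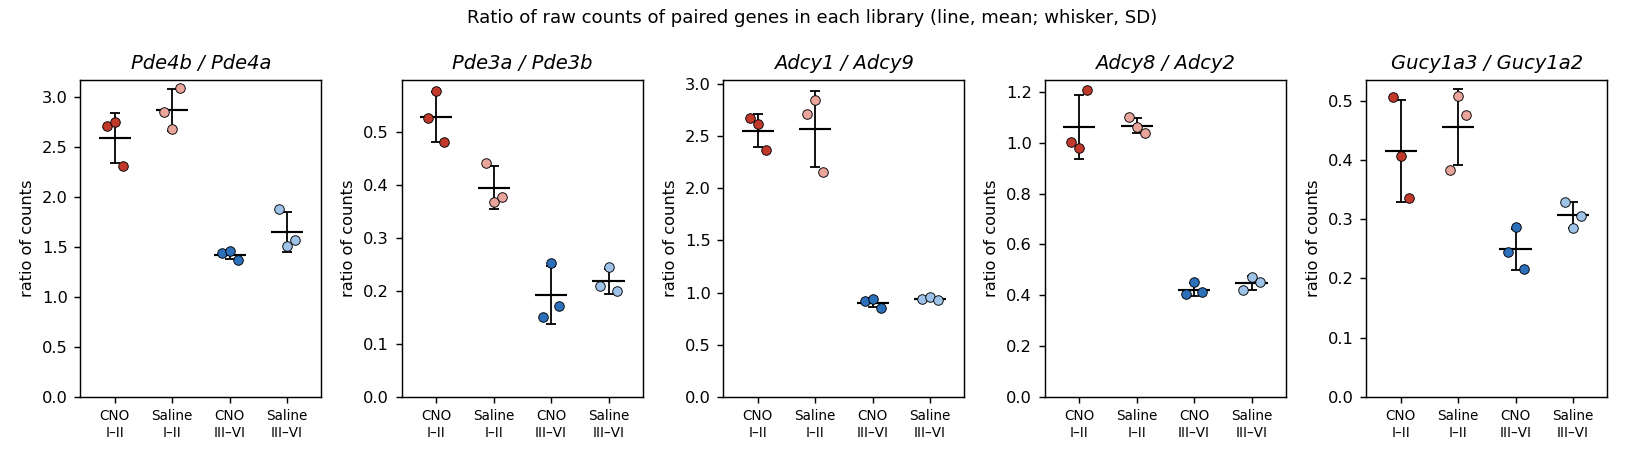
Ratio of raw counts of 5 pairs of related genes in each library, with the mean (line) and SD (whisker) of 3 libraries. In each of the 5 panels the 6 libraries of the superficial layer lie above the 6 of the deep layer, as in Pde4b over Pde4a, with 2.30 to 3.08 in the superficial layer and 1.37 to 1.88 in the deep layer. The pairs were chosen after their values were seen, so this separation carries no test.

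The plotted ratios use counts of different genes from the same library, so a scaling factor cancels out, but transcript lengths do not, and only the change of a ratio between the layers can be read.

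The genes around the cyclases and phosphodiesterases were described from 5 lists. Their counts stand beside 31.3% of all tested genes higher and 31.2% lower in the superficial layer, and no list was tested as a set. Of 16 tested kinases, exchange factors and channels that bind cyclic nucleotides, 6 were higher and 8 were lower in the superficial layer, with a median log2 difference of -0.11. Prkar2b, a regulatory subunit of protein kinase A (PKA), was higher in the superficial layer (79.6 ± 3.46 CPM in the superficial layer and 44.2 ± 2.85 CPM in the deep layer, SD, n = 6 each, log2 difference 0.85). So was the sparse channel subunit Cngb3, at 4.03 ± 0.274 CPM in the superficial layer and 0.482 ± 0.177 CPM in the deep layer (3.04). The catalytic subunit of PKA, Prkaca, was lower in the superficial layer (136 ± 3.96 CPM in the superficial layer and 238 ± 24.2 CPM in the deep layer, -0.80), and so was Hcn2, a pacemaker channel gated by cAMP (128 ± 7.30 CPM in the superficial layer and 301 ± 25.9 CPM in the deep layer, -1.23). Cngb3 reached the low-count filter only through the superficial layer (152 counts there and 19 in the deep layer), so its values are a description. It is among the 6 higher genes of this list. The largest edgeR adjusted p of these 4, that of Cngb3, was 1.88e-09. The PKA subunits thus went in different directions, as the cyclases did.

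Of 16 tested PKA inhibitors, anchors and substrates, 7 were higher and 8 lower in the superficial layer (median -0.06). Of all genes, 31.3% were higher and 31.2% lower. Arpp21, a PKA substrate, had 136 ± 12.3 CPM in the superficial layer and 63.7 ± 7.002 CPM in the deep layer (log2 difference 1.10), and the anchor Akap5 had 78.3 ± 9.58 CPM in the superficial layer and 34.8 ± 2.92 CPM in the deep layer (1.17). The anchor Akap12 had 348 ± 16.5 CPM in the superficial layer and 689 ± 53.9 CPM in the deep layer (-0.98), and Akap2 had 147 ± 4.73 CPM in the superficial layer and 215 ± 12.1 CPM in the deep layer (-0.54). These are SD over n = 6 libraries, and the largest edgeR adjusted p of the 4 was 4.01e-13.

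Of 6 tested G protein alpha subunits that act on adenylyl cyclase, 4 were higher and 1 lower in the superficial layer (median 0.30). The shares of all genes were 31.3% higher and 31.2% lower. Gnai2, an inhibitor of adenylyl cyclase, had 294 ± 16.2 CPM in the superficial layer and 170.2 ± 5.40 CPM in the deep layer (log2 difference 0.79, edgeR adjusted p = 1.02e-16). Gnao1 was higher as well (0.30, edgeR adjusted p = 4.12e-08). Gnal, a stimulatory subunit, was lower in the superficial layer (-0.35, edgeR adjusted p = 3.71e-07). Of 7 CREB family members and coactivators 4 were higher and 0 lower in the superficial layer (median 0.24), beside the same shares of all genes. Crtc1 (0.56, edgeR adjusted p = 1.21e-07) and Crebbp (0.25, edgeR adjusted p = 4.30e-07) had the smallest p.

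On the input side of guanylyl cyclase, 4 of 8 tested genes of nitric oxide and natriuretic peptide signalling were higher in the superficial layer and 2 lower (median 0.15). Of all genes, 31.3% were higher there and 31.2% lower. Nos1, the neuronal nitric oxide synthase, had 83.0 ± 8.47 CPM in the superficial layer and 43.8 ± 2.46 CPM in the deep layer (SD, n = 6 each, log2 difference 0.92, edgeR adjusted p = 1.66e-14). Nppc, the precursor of C-type natriuretic peptide, had 9.44 ± 0.833 CPM in the superficial layer and 3.40 ± 1.21 CPM in the deep layer (1.504, edgeR adjusted p = 4.49e-09). Nos1, which makes nitric oxide, was higher in the layer where the nitric oxide receptor subunits Gucy1a2 and Gucy1b3 were lower. The subunits Gucy1a3 and Gucy1b2 did not pass between the layers. Nppa, a sparse gene, was lower in the superficial layer (1.65 ± 0.794 CPM in the superficial layer and 3.63 ± 1.57 CPM in the deep layer, -1.17, edgeR adjusted p = 0.000659). Slightly lower there too was Npr2, the receptor cyclase for C-type natriuretic peptide (-0.15, edgeR adjusted p = 0.0339).

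With CNO, none of 32 tested genes passed in the superficial layer at an adjusted p under 0.05 by edgeR, where 0.142% of all 13344 genes did. At an unadjusted p under 0.05 there were 5 of 32, against 941 of all 13344 genes. DESeq2 called 0, with 3 of 32 at an unadjusted p under 0.05, against 496 of all 13344 genes. The log2 fold changes of CNO over Saline lay between -0.33 and 0.40, with a median of 0.03 (all genes, -0.00). Groups did not overlap for 3 of the 32 (9.38%, against 11.7% of all genes). These were Pde3a and Adcy6, higher with CNO, and Pde8a, lower with CNO. CPM in the CNO comparisons are scaled within the layer.

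The smallest p in the superficial layer was that of Pde3a. It had 27.4, 30.9 and 28.7 CPM in CNO libraries, against 23.9, 22.1 and 19.9 CPM in Saline libraries. All CNO libraries lay above all Saline libraries (log2 fold change 0.40 ± 0.11 SE, edgeR adjusted p = 0.357, unadjusted 0.00251). Adcy6 had 58.1, 60.9 and 63.9 CPM in CNO libraries, against 51.9, 53.4 and 52.1 CPM in Saline libraries (0.22 ± 0.08 SE, edgeR adjusted p = 0.585). Pde11a had 101, 118 and 113 CPM in CNO libraries, against 99.6, 101 and 88.9 CPM in Saline libraries, with an overlap (0.20 ± 0.08 SE, edgeR adjusted p = 0.596). The other genes with an unadjusted p under 0.05 were Pde8a, at 18.4 ± 1.82 CPM with CNO and 22.5 ± 1.81 CPM with Saline (-0.29), and Pde9a, at 19.5 ± 4.35 CPM with CNO and 24.5 ± 3.39 CPM with Saline (-0.33, SD, n = 3 each). None of these differences holds up against the adjustment over all genes. In the same layer the 5 Schwann cell markers used (Prx, Pmp2, Pmp22, Ncmap and Egfl8) summed to 31.5 to 65.9 CPM in CNO libraries and 123 to 255 CPM in Saline libraries (3 of 3 tested lower with CNO), and 1 of 7 fibroblast and meningeal markers was lower with CNO. Their part in these values was not tested.

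In the deep layer none of 32 tested genes passed with CNO either, where 0.137% of all 13117 genes did. There were 3 of 32 at an unadjusted p under 0.05, against 1212 of all 13117 genes. DESeq2 gave an adjusted p to only 13 of the 32, not to Pde9a, Gucy1a3 or Adcy10, and called 0 of those 13. It had 2 of 32 at an unadjusted p under 0.05, against 652 of all 13117 genes. Log2 fold changes lay between -0.88 and 0.12 (median -0.04, all genes -0.01). Groups did not overlap for 6 of the 32 (18.8%, against 14.5% of all genes). Of these, Adcy1 and Adcy9 stood higher with CNO and Adcy10, Gucy1a3, Pde10a and Pde7a stood lower. Adcy10 and Gucy1b2 reached the low-count filter only through the Saline libraries, and without them 5 of 30 genes did not overlap (16.7%) and 2 had an unadjusted p under 0.05.

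Pde9a had the smallest p there. It had 17.4, 14.1 and 13.98 CPM in CNO libraries, against 22.2, 24.9 and 15.02 CPM in Saline libraries (log2 fold change -0.44 ± 0.16 SE, edgeR adjusted p = 0.410). Saline replicate 3 lay among the CNO libraries, and without it Pde9a passed (-0.62, edgeR adjusted p = 0.0357), the only gene of the 32 to pass in any alternative that gave it an adjusted p. Gucy1a3 had 21.4, 21.3 and 16.7 CPM in CNO libraries, against 25.8, 21.7 and 27.1 CPM in Saline libraries (-0.34 ± 0.12 SE, edgeR adjusted p = 0.412). Adcy10 had 1.18, 1.26 and 1.23 CPM in CNO libraries, against 1.88, 2.91 and 2.11 CPM in Saline libraries, on few reads (-0.88 ± 0.36 SE, edgeR adjusted p = 0.465). It reached the low-count filter only through the Saline libraries (25 counts with CNO and 49 with Saline), so these values are given as a description. Gucy1a3 and Adcy10 were lower in each CNO library than in any Saline library, but neither passed the adjustment over all genes. In the same layer the 10 deep dorsal horn markers summed to 15745 to 18590 CPM in CNO libraries and 11598 to 14001 CPM in Saline libraries (2 of 10 higher with CNO). The 6 markers of dorsal root ganglion sensory neurons summed to 37.1 to 65.3 CPM in CNO libraries and 27.5 to 36.1 CPM in Saline libraries (1 of 3 tested higher with CNO), with Mrgprd at 0 in the CNO libraries. Their part in these values was not tested.

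**Figure D4:**
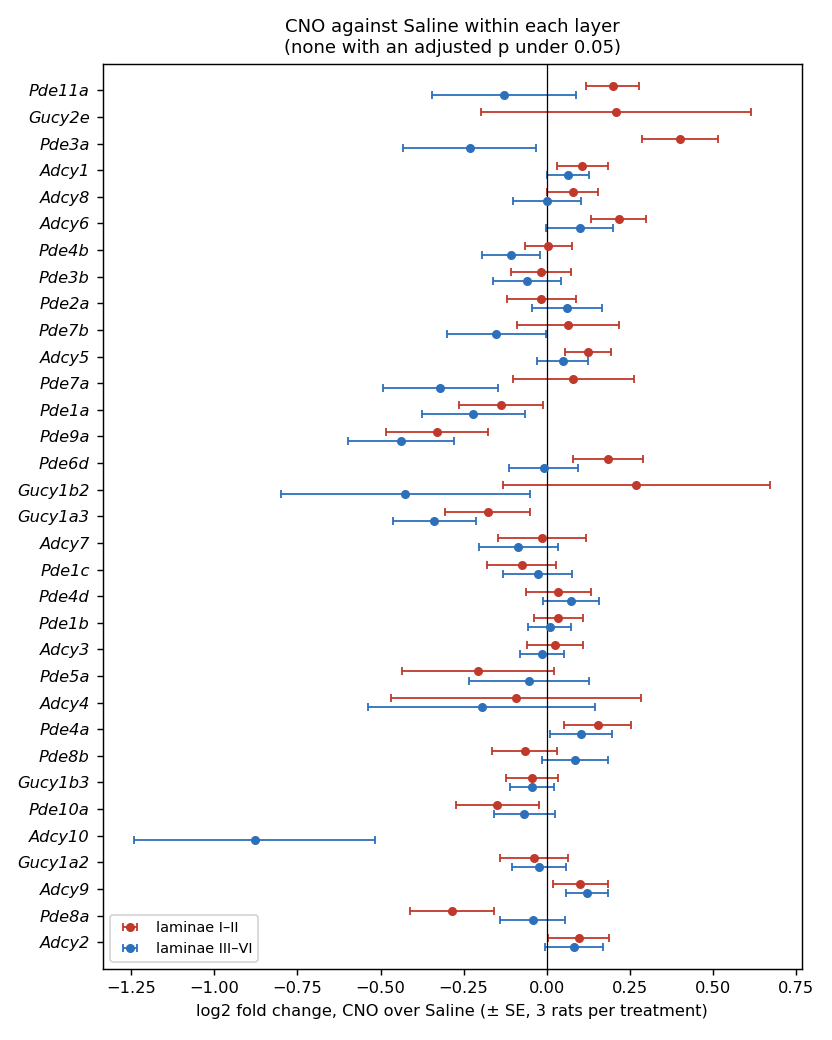
Log2 fold change of CNO over Saline with its standard error, in the superficial layer (red) and the deep layer (blue), for the genes tested in each layer (3 rats per treatment), ordered by their layer difference. No point passes an edgeR adjusted p under 0.05, and the widest bars belong to genes with few counts, such as Adcy10, Gucy1b2 and Gucy2e.

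Whether CNO acted differently in the layers was tested as an interaction over all 12 libraries, and it passed for 0 of 33 genes at an adjusted p under 0.05 by edgeR, with 0.429% of all genes passing. At an unadjusted p under 0.05 there was 1 gene of the 33, Pde3a, against 1273 of all 13745 genes. By DESeq2 there was 1 as well, against 343 of all 13745 genes. It called 0 of the 16 genes to which it gave an adjusted p (17 had none, Pde3a and Pde7a among them). The difference of log2 fold changes for Pde3a was 0.64 (SE 0.20, edgeR adjusted p = 0.228), from 0.40 in the superficial layer and -0.23 in the deep layer, where it had 5.17, 9.10 and 6.58 CPM in CNO libraries, against 8.26, 7.76 and 8.30 CPM in Saline libraries. The deep CNO libraries spread on both sides of the deep Saline libraries. Next came Pde7a (0.41 ± 0.23 SE, edgeR adjusted p = 0.622), with 13.1, 9.82 and 10.6 CPM in CNO libraries, against 10.8, 12.2 and 8.80 CPM in Saline libraries of the superficial layer. In the deep layer Pde7a had 7.97, 8.79 and 6.58 CPM in CNO libraries, against 9.64, 10.7 and 8.82 CPM in Saline libraries. Pde11a was the third (0.33 ± 0.19 SE, edgeR adjusted p = 0.643), with 5.31, 5.18 and 4.52 CPM in CNO libraries, against 6.38, 5.34 and 4.61 CPM in Saline libraries of the deep layer. None of the 5 pathway lists had a gene past the test in a CNO comparison or in the interaction.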

How the data were processed

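RNA from both dorsal horn layers of 3 CNO and 3 Saline rats was sequenced, 12 libraries in all. Per the study's methods, the authors mapped paired-end reads of 36 bases to the rat genome (rn6) in CLC Genomics Workbench. They deposited a total read count for each of 32623 genes and library. Whether reads in introns were counted is not given in the sources used here. The deposited quantile-normalized and transformed values, and the authors' columns of p-values, fold changes and corrected p-values, were not used.

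The counts were analysed in R 4.3.3 with edgeR 4.0.16 and, as an alternative, DESeq2 1.42.0, and tables were made in Python 3.11.15. Genes were filtered by filterByExpr (minimum count 10, minimum total count 15), scaled by TMM and tested by the quasi-likelihood test with Benjamini-Hochberg adjustment over all genes tested. CPM are TMM-scaled over 12 libraries in the layer comparison and within a layer in the CNO comparisons. The layer effect is the mean of its values in CNO and Saline rats. The genes and lists were chosen with earlier results of these data known, among them the low p of Pde11a toward laminae I–II. 1 gene of the Schwann cell markers is not reported here and is left out of their sum. Every member is named. Those past the layer test with an absolute log2 difference of 1 or more, and the 3 with the smallest p in each CNO comparison and the interaction, are given by library. Of each pathway list the 2 with the smallest p in each direction are named. Prkg1 and Prkg2 are on 2 lists. Of the genes, 11 overlap another annotated gene, mostly small RNAs and pseudogenes within introns, and Adcy3 overlaps Cenpo on the opposite strand by 511 bases. Whether counting used the strand is not given in the sources used here.

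The rat entered the layer fit as a block because the methods describe both layers as dissected from the same 3 rats of a treatment. That a number in the titles marks the same rat in both layers is inferred, not stated. Libraries with the same number in both layers deviated together (correlation 0.132 to 0.148 in CNO and 0.100 to 0.172 in Saline), and each correlated best with its own number. Same-numbered CNO and Saline libraries, which are different rats, also correlated best with their own number. Those correlations were 0.019 to 0.044 in laminae I–II and 0.058 to 0.113 in laminae III–VI. The check therefore cannot show that a number marks a rat. With 3 rats against 3, the exact permutation test has a smallest two-sided p of 0.1. Intervals and floors from counts would cover counting error only. Steps were tested on simulated data. The alternatives were no replicate block (or a replicate block in the CNO comparisons), library totals only, RLE factors, DESeq2, a filter of 1 CPM in 3 libraries, no low-count filter, CNO or Saline rats only, and leaving out each rat in turn.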

Additional observations from a re-analysis of the deposited data

How the results depend on the processing

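Between the layers, 18 of the 21 called genes kept their call in every alternative that tested them, and Adcy3, Pde1b and Pde7b did not. Leaving out each rat gave 10 to 11 genes higher and 9 to 10 lower in laminae I–II. With no replicate block 10 were higher and 10 lower, with DESeq2 10 and 8, with CNO rats only 10 and 8, and with Saline rats only 9 and 8. With library totals only the median of all genes rose by 0.18, 16 were higher and 8 lower (of all genes, 6607 and 2594, against 4301 and 4284 with TMM), and the sign turned for Adcy3 (0.025), Pde1b (0.059), Pde1c (0.075), Pde4d (0.063) and Pde5a (0.0072), each of which stayed below that median. Other sign changes concerned genes that did not pass. They were Adcy7 (-0.012 with no low-count filter, -0.0037 with 1 CPM in 3 libraries, -0.026 with Saline rats only, -0.069 to 0.056 over the rats left out), Gucy1a3 (-0.016), Gucy1b2 (-0.25) and Pde7a (-0.054) with Saline rats only, and Gucy1b2 again without Saline replicate 3 (-0.062 to 0.19 over the rats left out). With CNO, 0 genes passed in either layer and in the interaction in the alternatives that gave an adjusted p (DESeq2 gave none to 19 of 32 genes in laminae III–VI and to 17 of 33 in the interaction), except that 1 gene, Pde9a, was lower in laminae III–VI without Saline replicate 3 (0 to 1 over the rats left out). Same-numbered CNO and Saline libraries are different rats, and with the replicate block in the CNO comparisons 0 genes passed in both layers (78 and 194 of all genes). The interaction passed in 59 of all genes with the rat as a block and in 2 with no replicate block. Over the alternatives the count of all genes called with CNO ranged from 3 to 131 in laminae I–II (19 as reported) and from 0 to 194 in laminae III–VI (18 as reported), and that of the interaction from 2 to 164. Depth limits the 10 untested genes and Gucy2e, Adcy10, Gucy1b2 and Adcy4.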
